A study of Arabidopsis thaliana with 9 samples.

Results

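NAI1 and PYK10, a regulator and a stored enzyme of the ER bodies of Arabidopsis thaliana, were followed across ascorbate-deficient and wild-type seedlings. They are 2 of the 13356 genes that could be named from a probe set on the Affymetrix ATH1 array, and they were found by their symbols. NAI1 (AT2G22770, chromosome 2) and PYK10 (AT3G09260, chromosome 3) were each read by 1 probe set, and neither probe set carries a second gene name. The study hybridised RNA of whole seedlings to 9 arrays, 3 for each genotype. The vtc2-1 plants carried an EMS-induced mutation in the Col-0 background, the vtc1-1 plants carried the vtc1-1 mutation, whose origin is not given in the sources used here, and Col-0 was the wild type. Each mutant gene is represented by 1 allele. All plants had been grown for 14 days on agar plates to stage 1.04, and no treatment separates the groups. Both genes were chosen for differences seen on these same arrays, NAI1 in vtc1-1 against Col-0 and PYK10 between the mutants. Their values are therefore a description and carry no p-value.

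ER bodies are spindle-shaped compartments of the endoplasmic reticulum found in the epidermis and roots of Arabidopsis and its relatives. They store large amounts of PYK10, a beta-glucosidase that meets its substrates, among them indole glucosinolates and the coumarin glucoside scopolin, when a cell is broken. NAI1 is a bHLH transcription factor without which seedlings form no normal ER bodies, and it is known to be needed for high transcript levels of PYK10 and of NAI2, a resident protein of the ER body. When tissue is ground, PYK10 gathers into a complex with jacalin-related lectins such as JAL22, JAL33 and JAL34. VTC1 and VTC2 encode GDP-mannose pyrophosphorylase and GDP-L-galactose phosphorylase, enzymes on the way to ascorbate.

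Signals are MAS5 intensities on a linear scale, comparable for 1 gene between arrays but not between genes. Array medians lay between 43.0 and 45.2, and 14603 of 22810 probe sets passed the brightness filter. A pair of arrays stood apart from the rest of their genotype. Over the tested probe sets, the Pearson r of vtc2-1 replicate 3 was 0.918 with replicate 1 and 0.920 with replicate 2, whose own r was 0.944. For Col-0 replicate 3 it was 0.874 and 0.889, and for the remaining Col-0 pair 0.933. Col-0 replicate 3 correlated more highly with each mutant array, at 0.916 to 0.931, than with its own genotype. For vtc2-1 replicate 3 this held for the vtc1-1 arrays, at 0.924 to 0.937, and for Col-0 replicate 3, at 0.923. With Col-0 replicates 1 and 2 its r was lower, at 0.888 and 0.896. Both arrays carry the replicate number 3. Results below are given with and without these arrays where they matter. Of 18 root markers, 5 could be read, and their summed signal was 538.5, 724.7 and 386.0 in vtc2-1 replicates 1 to 3, against 291.0 to 479.1 in vtc1-1 and 273.1, 393.5 and 853.3 in Col-0 replicates 1 to 3. Both readable genes of 13 shoot markers, RCA and SBPASE, summed to 8697 to 9904 in vtc2-1 and 8211 to 9442 in vtc1-1. In Col-0 replicates 1 to 3 they summed to 10526, 10361 and 7181, so Col-0 replicate 3 had the highest root sum and the lowest shoot sum. No readable marker was at 0. In whole seedlings, fewer cells of a type and less RNA per cell cannot be told apart. Separate cultures are not stated for the replicates, so the p-values rest on the spread among these arrays alone, which may be technical in part.

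NAI1 was lower in every mutant array than in every Col-0 array. Its signal was 75.0, 72.3 and 50.1 in vtc2-1 replicates 1 to 3 and 42.9, 42.4 and 54.6 in vtc1-1 replicates 1 to 3, against 83.7, 93.7 and 91.1 in Col-0. The genotypes averaged 65.8 ± 13.7 in vtc2-1, 46.6 ± 6.92 in vtc1-1 and 89.5 ± 5.19 in Col-0 (SD, n = 3 arrays each). The Col-0 arrays were therefore the tightest group, with a coefficient of variation of 20.8% in vtc2-1, 14.8% in vtc1-1 and 5.80% in Col-0. In vtc1-1 the log2 difference from Col-0 was -0.95 ± 0.21 (SE), so the geometric mean was 51.8% of that in Col-0. In vtc2-1 it was -0.47 ± 0.21, or 72.4% of Col-0. All NAI1 signals exceeded the 40th percentile of their array, the brightness required for testing. From high to low the genotype means ran Col-0, vtc2-1, vtc1-1, and the last step is not clear of the spread. The log2 difference between vtc2-1 and vtc1-1 was 0.48 ± 0.21, and vtc2-1 replicate 3, at 50.1, lay below vtc1-1 replicate 3, at 54.6.

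PYK10 took a different order, with vtc2-1 above Col-0 on average and vtc1-1 below it. Its signal was 4238, 4406 and 2086 in vtc2-1 replicates 1 to 3 and 2031, 1726 and 2318 in vtc1-1 replicates 1 to 3, against 2465, 2623 and 3001 in Col-0. Every vtc1-1 array was below every Col-0 array, while 2 vtc2-1 arrays were above all Col-0 arrays and the third was below them all. The means were 3577 ± 1294 in vtc2-1, 2025 ± 296 in vtc1-1 and 2696 ± 275 in Col-0 (SD, n = 3 each). The coefficient of variation was 36.2% in vtc2-1, 14.6% in vtc1-1 and 10.2% in Col-0, so the vtc2-1 mean describes none of its arrays well. On the log2 scale vtc1-1 differed from Col-0 by -0.42 ± 0.25 (SE), a level of 74.8% of Col-0. The difference of vtc2-1 from Col-0 was 0.34 ± 0.25, or 126% of Col-0, with overlapping groups. Between vtc2-1 and vtc1-1 it was 0.75 ± 0.25, or 169% of vtc1-1, and the groups overlapped again through vtc2-1 replicate 3.

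**Figure D1:**
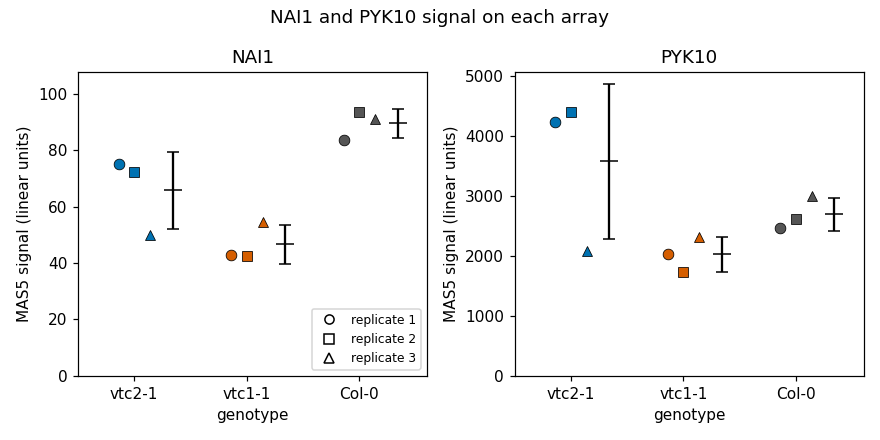
MAS5 signal (linear units) of NAI1 and PYK10 on each array by genotype, with circles, squares and triangles for replicates 1 to 3 and the mean ± SD drawn beside each group. The NAI1 signals of all mutant arrays lie below the Col-0 arrays, whereas PYK10 in vtc2-1 splits into 2 arrays above all others, at 4238 and 4406, and 1 at 2086.

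Groups that do not overlap were common on these arrays, and the counts for both genes stand beside that background. Both NAI1 and PYK10 had all vtc1-1 arrays below all Col-0 arrays, as did 3.58% of the tested probe sets. NAI1 alone of the pair had all vtc2-1 arrays below Col-0, as did 4.52% of the tested probe sets. Neither gene separated vtc2-1 from vtc1-1 with all arrays, where 5.69% of the tested probe sets were higher in vtc2-1 without overlap. These shares are given for scale, since the genes were picked from such differences. Both comparisons with Col-0 use the same Col-0 arrays, so their values are not independent of each other.

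The wide spread of PYK10 in vtc2-1 came from replicate 3. There PYK10 was at 48.3% of the mean of the other vtc2-1 arrays and NAI1 at 68.0%. In vtc2-1 replicates 1 and 2 the genes stood on opposite sides of the wild type. NAI1 was 0.25 and 0.31 log2 units below the Col-0 mean there, and PYK10 was 0.66 and 0.71 log2 units above it. In vtc2-1 replicate 3 both were below the Col-0 mean, with NAI1 at -0.84 and PYK10 at -0.37 on the log2 scale. In vtc1-1 both genes were below the Col-0 mean on each array, NAI1 by 0.71 to 1.08 and PYK10 by 0.21 to 0.64 log2 units.

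Without vtc2-1 replicate 3 both genes separated vtc2-1 from both other genotypes. NAI1 differed from Col-0 by -0.28 ± 0.21 on the log2 scale (SE, n = 2 vtc2-1 arrays), and both arrays stayed below all Col-0 arrays. PYK10 then differed from Col-0 by 0.69 ± 0.18 and from vtc1-1 by 1.104 ± 0.18, or 215% of vtc1-1, without overlap in either comparison. NAI1 was 0.67 ± 0.21 log2 units higher in vtc2-1 than in vtc1-1, also without overlap. With the array left out, 8.33% of tested probe sets were lower and 11.6% higher in vtc2-1 than in Col-0 without overlap, and 12% were higher in vtc2-1 than in vtc1-1. Leaving out Col-0 replicate 3 moved both genes little. NAI1 then differed from Col-0 by -0.45 in vtc2-1 and by -0.94 in vtc1-1, and PYK10 by 0.41 in vtc2-1 and by -0.34 in vtc1-1. The root marker sum moved with PYK10 in vtc2-1, being lowest in replicate 3 at 386.0, and it was highest of all arrays in Col-0 replicate 3 at 853.3, where PYK10 reached 3001, the highest Col-0 array. Within Col-0 the sum of 273.1, 393.5 and 853.3 thus had the same order as PYK10, while within vtc1-1 the lowest PYK10 signal, in replicate 2, stood beside a sum of 303.1 and the lowest sum, 291.0, was in replicate 1. The sum adds linear signals, so the brighter markers AT3G01190, AT4G30170 and AT5G17820 weigh most in it, and each was lowest in replicate 3 within vtc2-1. The dimmer markers did not share this. EXPA7 was highest in replicate 3, at 31.7, 30.1 and 39.6 in vtc2-1 replicates 1 to 3. EXPA18 was lowest in replicate 1, at 30.8, 50.4 and 35.8. Of the 5 readable root markers AT5G17820 ran most like PYK10 over the 9 arrays, with a Pearson r of 0.77 and a Spearman rho of 0.87, and EXPA7 least, with a Pearson r of -0.38. The part of root tissue in the PYK10 values was not tested.

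Across arrays, NAI1 and PYK10 had a higher correlation within genotypes than over all arrays. Over all 9 arrays their log2 signals had a Pearson r of 0.64 and a Spearman rho of 0.72, and r was 0.36 without the 2 arrays farthest from the NAI1 median, vtc1-1 replicates 1 and 2. After each genotype's mean was subtracted, r was 0.92, and it was 0.75 without vtc2-1 replicate 3. These correlations are descriptions over arrays that share their genotype and their scaling.

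**Figure D2:**
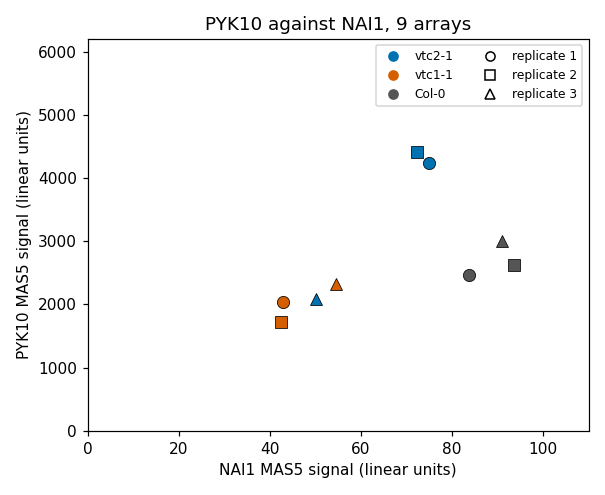
PYK10 signal against NAI1 signal (MAS5, linear units) for the 9 arrays, coloured by genotype, with symbols for replicates. The vtc2-1 replicates 1 and 2 have a NAI1 signal of 75.0 and 72.3 with a PYK10 signal of 4238 and 4406, and vtc2-1 replicate 3 lies among the vtc1-1 arrays at 50.1 and 2086.

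PYK10 signal per NAI1 signal was higher in both mutants than in the wild type. Relative to the Col-0 mean of this log2 ratio, it was 0.91, 1.02 and 0.47 in vtc2-1 replicates 1 to 3 and 0.66, 0.44 and 0.50 in vtc1-1 replicates 1 to 3, against -0.03, -0.10 and 0.13 in Col-0. The mutant arrays all lay above the Col-0 arrays, including vtc2-1 replicate 3. Such a separated ratio to NAI1 was common among the other tested probe sets, where 33.8% had one in vtc2-1 and 77.6% in vtc1-1, so it is not particular to PYK10.

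Of the other ER body genes written down, 8 in number, NAI2 was the one that could be read and tested. Its signal was 502, 406 and 284 in vtc2-1 replicates 1 to 3 and 376, 276 and 355 in vtc1-1 replicates 1 to 3, against 454, 392 and 412 in Col-0. As for PYK10, each vtc1-1 array was below each Col-0 array, and vtc2-1 replicate 3 was the lowest vtc2-1 array. The log2 difference was -0.33 ± 0.21 in vtc1-1 (SE, limma adjusted p = 0.998) and -0.12 ± 0.21 in vtc2-1 (adjusted p = 0.936), both against Col-0. NAI2 did not pass the threshold of 0.05 in any comparison.

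The PYK10 complex list held 11 genes, of which 5 could be read and JAL33, JAL34 and JAL22 were bright enough to test. JAL33 had a signal of 1697, 1189.7 and 416 in vtc2-1 replicates 1 to 3 and 652, 591 and 457 in vtc1-1 replicates 1 to 3, against 1096, 1067 and 1456 in Col-0. All vtc1-1 arrays and vtc2-1 replicate 3 were below all Col-0 arrays. JAL34, whose gene lies next to JAL33, had a signal of 1160.3, 1066 and 489.7 in vtc2-1 replicates 1 to 3 and 615, 585 and 701 in vtc1-1 replicates 1 to 3, against 891, 787 and 1037 in Col-0. Like PYK10 it was highest in vtc2-1 replicates 1 and 2, while vtc2-1 replicate 3 was the lowest of the 9 arrays. JAL22 had a signal of 364, 289 and 124 in vtc2-1 replicates 1 to 3 and 132, 149 and 168 in vtc1-1 replicates 1 to 3, against 336, 238 and 149 in Col-0. Its vtc1-1 arrays overlapped those of Col-0 through the low Col-0 replicate 3. JAL23 and AT1G54020, the other readable genes of the list, were below the 40th percentile on every array, with signals of 1.79 to 15.4 and 0.807 to 10.2.

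**Figure D3:**
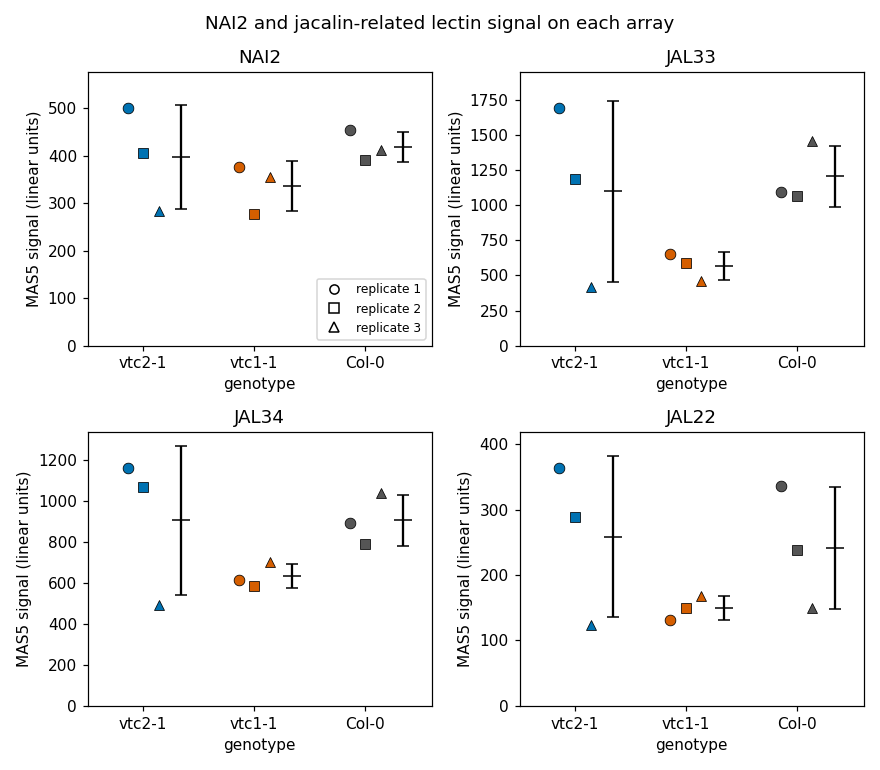
MAS5 signal (linear units) of NAI2, JAL33, JAL34 and JAL22 on each array by genotype, with circles, squares and triangles for replicates 1 to 3 and the mean ± SD beside each group. In each panel vtc2-1 replicate 3 is the lowest vtc2-1 array, and the vtc1-1 arrays lie below Col-0 except for JAL22, where 149 in Col-0 replicate 3 falls among them.

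Against Col-0, all 4 of these genes were lower in vtc1-1 on average, and 3 of them, NAI2, JAL33 and JAL34, did not overlap with Col-0, as 3.58% of all tested probe sets were lower in vtc1-1 without overlap. Their lists were chosen with earlier results of these data known, so that share is given for scale. JAL33 differed by -1.09 ± 0.38 on the log2 scale (SE), JAL34 by -0.51 ± 0.27 and JAL22 by -0.62 ± 0.36, each with an adjusted p of 0.998. The median of the 4 was -0.56 and that of all tested probe sets was 0.01, and 0 of the 4 passed in limma after adjustment over all tested probe sets, while 1, JAL33, had an unadjusted p under 0.05. The rate of calls in that comparison was 0%, with 603 probe sets at an unadjusted p under 0.05. In vtc2-1 against Col-0 the differences were smaller than their errors, with JAL33 at -0.34 ± 0.38, JAL34 at -0.09 ± 0.27 and JAL22 at 0.04 ± 0.36 (adjusted p of 0.889 to 0.986). In that comparison 0.00685% of the tested probe sets were called, which is 1 probe set, and none of the 4 genes was. Between vtc2-1 and vtc1-1, JAL33 differed by 0.75 ± 0.38, JAL34 by 0.42 ± 0.27, JAL22 by 0.66 ± 0.36 and NAI2 by 0.21 ± 0.21, with a median of 0.54 against 0.00 for all tested probe sets. None of the 4 passed (adjusted p = 0.998 each, limma), where again 0.00685% of the tested probe sets were called.

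The low vtc2-1 replicate 3 was shared by all 6 genes. Its signal was below both other vtc2-1 arrays for NAI1, PYK10, NAI2, JAL33, JAL34 and JAL22, as it was for 37.6% of all tested probe sets, with 34.8% above both. As a share of the mean of the other vtc2-1 arrays it was 62.5% for NAI2, 28.8% for JAL33, 44.0% for JAL34 and 38.0% for JAL22. Beside these, PYK10 was at 48.3% and NAI1 at 68.0%, the highest share of the 6. The 3' to 5' signal ratio of 3 control transcripts, a measure of RNA integrity and labelling, was 1.68 on the log2 scale in vtc2-1 replicate 3 and ran from 1.28 to 1.88 over the arrays.

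**Figure D4:**
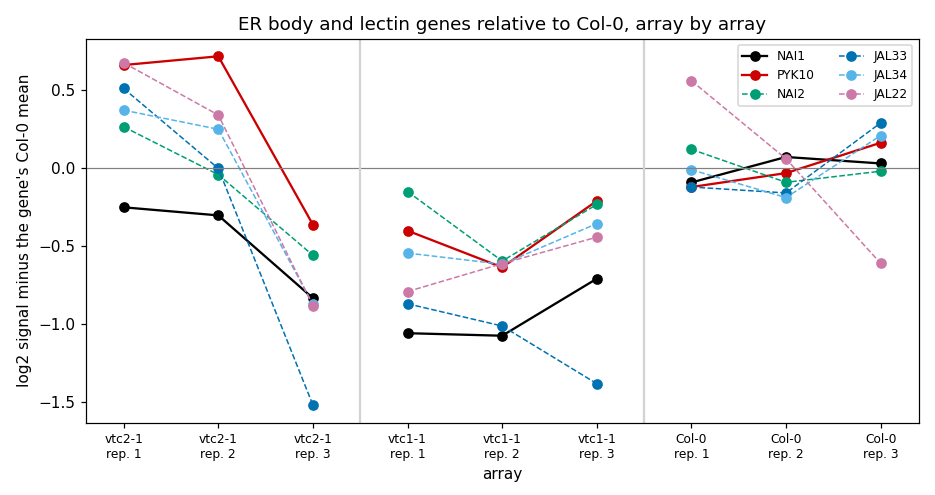
Log2 signal minus the gene's Col-0 mean for NAI1, PYK10, NAI2, JAL33, JAL34 and JAL22 on each array, with lines joining the arrays of a genotype that have no order among them. NAI1 and PYK10 lie at -0.25 and 0.66 in vtc2-1 replicate 1, and all 6 genes lie below 0 in vtc2-1 replicate 3 and in the vtc1-1 arrays.

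Without vtc2-1 replicate 3 the 4 companions also separated the mutants. Their median log2 difference was then 0.97 between vtc2-1 and vtc1-1 and 0.28 in vtc2-1 against Col-0, where it was -0.10 with all arrays. Each had both remaining vtc2-1 arrays above all vtc1-1 arrays, beside the 12% of tested probe sets given above. JAL33 then differed by 1.34 ± 0.22 on the log2 scale, JAL22 by 1.12 ± 0.29, JAL34 by 0.82 ± 0.17 and NAI2 by 0.44 ± 0.19, and none passed (limma adjusted p of 0.136 for JAL33 and above it for the others), in a fit that called 0.00685% of tested probe sets. With Col-0 replicate 3 also left out, a choice made after the values had been seen, the lectins passed. JAL33, JAL34 and JAL22 were then called higher in vtc2-1 than in vtc1-1 (adjusted p = 0.00559, 0.0270 and 0.0270), in a comparison that called 0.288% of tested probe sets. In the same fit JAL33 at -0.95 ± 0.18 and JAL22 at -0.92 ± 0.19 were called lower in vtc1-1 than in Col-0 (adjusted p = 0.0213 and 0.0348), with 1.24% of tested probe sets called. No companion was called between vtc2-1 and Col-0, where 0.794% of tested probe sets were. These calls depend on dropping both arrays, and over the other alternatives tried no companion had an adjusted p under 0.05 in any comparison. JAL33 in vtc1-1 against Col-0 had an adjusted p of 0.0213 to 0.9999 over 19 alternatives.

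**Figure D5:**
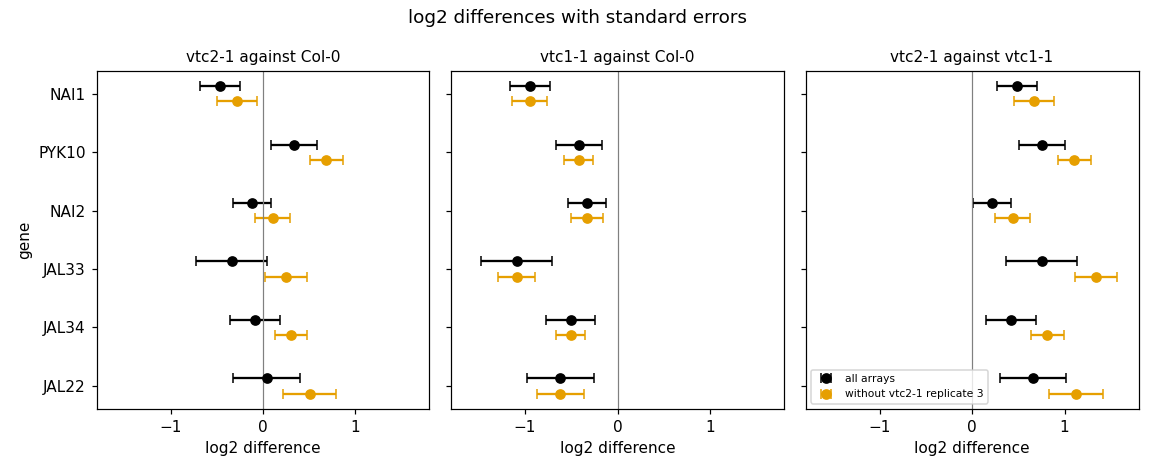
Log2 differences with standard errors for NAI1, PYK10, NAI2, JAL33, JAL34 and JAL22 in the 3 comparisons, in black with all arrays and in orange without vtc2-1 replicate 3. All genes lie below 0 in vtc1-1 against Col-0, and without that array PYK10 lies at 0.69 and NAI1 at -0.28 in vtc2-1 against Col-0.

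The 10 lists of genes around ER bodies held 142 entries, of which 44 could be read and 28 were tested, 26 of them besides NAI1 and PYK10. With all arrays 0 of these 26 passed in any comparison. At an unadjusted p under 0.05, 4 of the 26 were lower in vtc1-1 than in Col-0, where 1.87% of all tested probe sets were. In vtc2-1 against Col-0, 1 of the 26 was higher, where 3.66% were. Between vtc2-1 and vtc1-1, 3 of the 26 were higher, where 2.03% were. The lists were chosen with earlier results of these data known, so these shares are given for scale and do not test the lists. The median log2 difference of the 26 was -0.01 in vtc2-1 and -0.11 in vtc1-1 against Col-0, and 0.17 between vtc2-1 and vtc1-1. Without Col-0 replicate 3 it was 0.06 in vtc2-1 and -0.06 in vtc1-1 against Col-0, and without vtc2-1 replicate 3 it was 0.12 in vtc2-1 against Col-0.

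The enzymes of the sequence family of PYK10, glycoside hydrolase family 1, were sparsely covered, and they were not ranked by closeness to PYK10. Of 37 written family members besides PYK10, 21 could be read and 9 tested, and their median log2 difference was -0.01 in vtc2-1 and -0.11 in vtc1-1 against Col-0, and 0.01 between vtc2-1 and vtc1-1. Without Col-0 replicate 3 the vtc1-1 median was -0.34. BGLU16 differed by -0.56 ± 0.19 and BGLU46 by -0.60 ± 0.23 in vtc1-1 against Col-0 (limma adjusted p = 0.998 each). BGLU44 had a signal of 988, 1088 and 952 in vtc2-1 against 679, 687 and 896 in Col-0, and differed by 0.43 ± 0.15 (limma adjusted p = 0.722). The groups did not overlap, and 6.27% of all tested probe sets were likewise higher in vtc2-1 than in Col-0 without overlap. BGLU40 differed by 0.69 ± 0.24 between vtc2-1 and vtc1-1 (limma adjusted p = 0.998). These had the smallest unadjusted p of the family, and none passed after adjustment. BGLU21 and BGLU22, beta-glucosidases close to PYK10, share a probe set that names several genes and are not reported.

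Other genes around ER bodies were thinly covered. AT2G22760, which stands next to NAI1 in the TAIR10.1 gene order and was written down with the bHLH relatives, had signals scattered between 1.72 and 56.3 and exceeded the 40th percentile on 3 arrays. The remaining bHLH relatives, AT2G22750 and AT4G37850, stayed below it on every array, at 1.97 to 22.9 and 0.482 to 8.67. Of 13 genes of the indole glucosinolate list UGT74B1, a glucosyltransferase of glucosinolate synthesis, was readable and not called in any comparison, with signals of 129 to 253. None of the 13 genes for glucosinolate breakdown was readable here, and 3 of 11 genes for protein folding in the ER, BZIP60, BZIP28 and ATERDJ3B, were tested and not called. AT5G05600 was the 1 tested gene of the 13 on the jasmonate list, written because jasmonate raises ER body formation in leaves. Its signal was 58.3, 53.1 and 66.8 in vtc2-1 and 29.8, 23.7 and 8.12 in vtc1-1, against 111, 103 and 59.8 in Col-0. On 2 of the 3 vtc1-1 arrays it was below the 40th percentile, so the size of its differences from vtc1-1 is uncertain. The log2 difference was -2.30 ± 0.42 in vtc1-1 against Col-0 (SE, limma adjusted p = 0.616) and 1.72 ± 0.42 between vtc2-1 and vtc1-1 (limma adjusted p = 0.998). In vtc1-1 it was called without Col-0 replicate 3, at -2.58 with an adjusted p of 0.0266 where 0.322% of tested probe sets were called, within a range of 0.0113 to 0.9998 over 18 alternatives.

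The genes whose log2 signals ran most like NAI1 over the 9 arrays were sought among 7896 other named, tested probe sets. By Pearson r these were AT1G36940 at 0.92, AT5G56980 at 0.91, AT3G52360 at 0.91, AT1G49960 at 0.90 and AT5G65900 at 0.89. AT1G36940 had a signal of 27.1, 21.0 and 19.5 in vtc2-1 and 11.0, 14.0 and 16.4 in vtc1-1, against 43.9, 32.2 and 40.4 in Col-0. It exceeded the 40th percentile on the 3 Col-0 arrays and on no mutant array, so it was tested only through the group where it was high, and its likeness to NAI1 is no finding. AT5G56980 and AT1G49960 each exceeded that percentile on 1 of the 3 vtc1-1 arrays, so their likeness rests in part on dim values. JAL33 ranked 35th for NAI1, JAL34 43rd, NAI2 87th and PYK10 200th. After genotype means were subtracted, PYK10 ranked 16th for NAI1, JAL34 48th, NAI2 281st and JAL33 417th.

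For PYK10 the most similar genes were AT1G06640 at 0.95, AT5G43150 at 0.93, GH9C1 at 0.93, AT2G41020 at 0.91 and AT1G66250 at 0.89. GH9C1 is a glycosyl hydrolase of family 9, and AT1G66250 stands close to BGLU21 in the TAIR10.1 gene order, with AT1G66260 between them. GH9C1 exceeded the 40th percentile on 2 vtc2-1, 1 vtc1-1 and 3 Col-0 arrays, and AT2G41020 on 3, 2 and 2. The likeness of both thus rests in part on dim values. AT1G06640 had a signal of 675, 575 and 374 in vtc2-1 and 348, 327 and 346 in vtc1-1, against 398, 401 and 429 in Col-0. It was picked for its likeness to PYK10 on these arrays, so its split within vtc2-1 is no separate finding. JAL34 ranked 6th for PYK10 with r = 0.88, the closest of the ER body and lectin genes, followed by JAL33 at 52nd, NAI2 at 76th, JAL22 at 117th and NAI1 at 208th. The readable root markers ranked 54th (AT5G17820), 157th (AT3G01190), 268th (AT4G30170), 458th (EXPA18) and 6806th (EXPA7) for PYK10. By this plain correlation 2 of the 5 ran closer to it than NAI1 did. After genotype means were subtracted, NAI1 ranked 17th for PYK10 (r = 0.92, or 0.75 without vtc2-1 replicate 3). The root markers then ranked 465th (AT5G17820), 634th (AT3G01190), 793rd (AT4G30170), 1467th (EXPA18) and 5483rd (EXPA7), all behind NAI1 with all 9 arrays. No rank and no root marker value without vtc2-1 replicate 3 is given here, so this order is not shown without that array. AT3G09250, which stands close to PYK10 in the gene order, had a signal of 106, 112 and 141 in vtc2-1 replicates 1 to 3 and ranged from 106 to 152 over the 9 arrays. Its vtc2-1 replicate 3 was the highest array of that genotype, where PYK10 was lowest. These likenesses are over 9 arrays that share genotype and scaling, and they say nothing of shared control.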

How the data were processed

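Biotin-labelled RNA of each whole-plant sample was read on its own 1-colour ATH1 array, per the labels. The authors deposited an intensity for each probe set on a linear scale, for which the submitters' processing notes name MAS5 and GCOS. Their versions are not given in the sources used here. Groups are the genotypes in the sample titles. The signals were log2 transformed with no pseudocount. A probe set was tested if it was above its array's 40th percentile on at least 3 of 9 arrays and was not 1 of 64 controls. One model of group means over 9 arrays was fitted with limma 3.58.1 in R 4.3.3 (eBayes with an intensity trend), with Benjamini-Hochberg adjustment over 14603 probe sets and a threshold of 0.05. The code was tested on simulated data. Correlations used log2 signals. Values after ± are SD for signals and SE for log2 differences.

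Probe sets were named from the platform table, with symbols updated through TAIR10.1, and 13513 name 1 gene. No sequences were used, and coordinates served only to place genes in order along the chromosomes. NAI1 and PYK10, the gene lists and the tests were chosen with earlier results of these data known. The text names both genes, the tested members of the ER body, PYK10 complex and bHLH lists, up to 4 members of each other list with the smallest p, and the 5 genes most like each by Pearson r. Alternatives were the normalization, the brightness filter, a pseudocount of 16, the variance trend, the arrays in the fit, array weights, a replicate block and leaving out arrays. The main fit did not pair the samples by replicate number. Figures were drawn with matplotlib 3.10.9 in Python 3.11.15.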

Additional observations from a re-analysis of the deposited data

How the results depend on the processing

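NAI1 and PYK10 kept the direction of each log2 difference under every alternative tried. Over the leave-one-out fits NAI1 ranged from -0.57 to -0.28 in vtc2-1 and from -1.07 to -0.89 in vtc1-1 against Col-0, and from 0.38 to 0.67 between vtc2-1 and vtc1-1. PYK10 ranged from 0.15 to 0.69, from -0.52 to -0.31 and from 0.56 to 1.104 in the same comparisons. With log2(signal + 16), NAI1 in vtc1-1 against Col-0 moved to -0.76, as an added constant shrinks differences of dim genes. Of the 26 other listed genes, 0 to 1 were called in vtc1-1 against Col-0 over the leave-one-out fits, AT5G05600 without Col-0 replicate 3. Without Col-0 replicate 3 and vtc2-1 replicate 3 together, an alternative chosen after seeing the data, 3 were called in vtc1-1 against Col-0 and 3 between vtc2-1 and vtc1-1. In vtc2-1 against Col-0 the small differences of the companions changed sign: JAL34 was 0.13 with array weights, and over the leave-one-out fits NAI2 ran from -0.30 to 0.11, JAL33 from -0.76 to 0.25, JAL34 from -0.32 to 0.31 and JAL22 from -0.27 to 0.50. Without both arrays NAI2 was 0.10, JAL33 0.39 and JAL34 0.41. The cause was not tested.

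With the replicate number as a block, NAI1 differed by -0.47 ± 0.23 in vtc2-1 and -0.95 ± 0.23 in vtc1-1 against Col-0, PYK10 by 0.34 ± 0.26 and -0.42 ± 0.26, and 0 of the 26 listed genes were called. Deviations of same-numbered arrays correlated at -0.07 to 0.20, highest for replicate 3 of vtc2-1 and Col-0. Arrays of different numbers were not compared in this way, so whether the numbers pair the samples was not tested. The block changed no call. The 3 arrays per genotype limit every value.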

Other observations

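After subtraction of genotype means, the genes most like PYK10 over the 9 arrays were AT3G11590 with r = 0.99, AT5G40470 with 0.97, ATCRT1 and JAL34 with 0.96 each and AT4G38350 with 0.96. Those most like NAI1 were AT1G05960, AT5G57700 and AT5G40470 with 0.97 each, and AT4G24930 and THO1 with 0.96 each. AT5G40470 stood among the 5 closest of both genes by this measure. JAL34 was the closest lectin gene to PYK10 by both this measure and the plain correlation. By Spearman's rho JAL34 had 0.92 with PYK10. AT5G56980, AT3G52360 and AT1G36940 stood among the closest to NAI1 by rho as well as by r, with rho of 0.92, 0.92 and 0.90. Of these, AT1G36940 exceeded the 40th percentile on no mutant array and AT5G56980 on 1 vtc1-1 array. These are descriptions, and vtc2-1 replicate 3 lies far from the other arrays of its genotype in both NAI1 and PYK10.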
